A study of Rattus norvegicus with 9 samples.

Results

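The genes described here are 10 parts of the growth hormone and insulin-like growth factor (IGF) axis as it is read in rat liver: Ghr, Stat5b, Cish, Socs2, Igf1, Igfals, Igfbp1, Igfbp2, Igfbp3 and Igfbp4. They were chosen by name for their place in the axis, with earlier results of these data known. All 10 were measured, by 13 of the 31042 probe sets tested, and they are 10 of the 14377 genes that a probe set names alone. A probe set is a group of short oligonucleotides on the array that reads a single transcript. The livers of 9 male Sprague-Dawley rats, 3 in each of 3 groups, were read on Affymetrix rat arrays, with an array for each rat. Vehicle-treated rats carried replicate numbers 3, 4 and 5. CCl4 rats (replicates 1, 2 and 3) received repeated intraperitoneal injections of carbon tetrachloride, a hepatotoxin, in olive oil over 8 weeks to induce liver fibrosis. CCl4+Rot rats (replicates 4, 5 and 6) received the same CCl4 injections and, starting 2 weeks after the first of them, intraperitoneal rottlerin at 2.5 mg/kg body weight, an activator of BK potassium channels. Both injected groups therefore carried CCl4, and no rat received rottlerin alone.

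Growth hormone from the pituitary binds its receptor on hepatocytes, which activates the kinase JAK2 and the transcription factors STAT5A and STAT5B. STAT5 induces Igf1 and Igfals, whose product holds IGF-1 and IGFBP-3 in a long-lived ternary complex, and it also induces the feedback inhibitors Cish and Socs2. Liver is the main source of circulating IGF-1, and in male rats growth hormone is secreted in pulses that set much of the sex-biased gene expression of this organ. IGF binding proteins carry IGFs in blood and tissue. Igfbp1 is held down by insulin and is high in fasting and stress.

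The sequence just before the RefSeq start of a gene is shown for Cish, the STAT5 feedback gene that varied most between rats, and for Igf1 and Igfals, whose CCl4 values lay below those of both other groups. Each is the 250 bases upstream of the start on the gene's own strand, 5′ to 3′, in build GRCr8. Capitals mark TTCNNNGAA, the palindromic element bound by STAT5, which reads the same on both strands.

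Cish, chr8:116850719-116850968, plus strand: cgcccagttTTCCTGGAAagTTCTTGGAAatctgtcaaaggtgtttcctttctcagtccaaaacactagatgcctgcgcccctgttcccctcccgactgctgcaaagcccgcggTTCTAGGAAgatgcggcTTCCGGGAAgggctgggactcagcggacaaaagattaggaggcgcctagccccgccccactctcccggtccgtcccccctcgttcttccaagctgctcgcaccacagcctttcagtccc

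Igf1, chr7:24172282-24172531, plus strand: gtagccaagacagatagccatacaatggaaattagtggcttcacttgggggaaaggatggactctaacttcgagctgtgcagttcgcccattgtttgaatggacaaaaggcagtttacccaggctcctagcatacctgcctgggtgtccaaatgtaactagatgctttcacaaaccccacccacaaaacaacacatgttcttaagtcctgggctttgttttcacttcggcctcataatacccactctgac

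Igfals, chr10:14403600-14403849, plus strand: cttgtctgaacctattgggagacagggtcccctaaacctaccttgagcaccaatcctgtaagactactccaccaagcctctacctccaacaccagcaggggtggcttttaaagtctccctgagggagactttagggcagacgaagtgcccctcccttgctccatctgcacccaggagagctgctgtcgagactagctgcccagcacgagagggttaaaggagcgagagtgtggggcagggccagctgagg

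The Cish sequence held 4 matches that do not overlap, TTCCTGGAA from base -241, TTCTTGGAA from base -230, TTCTAGGAA from base -136 and TTCCGGGAA from base -119, counted from the start. RefSeq promoter windows of 300 bases (250 before the start and 50 after it) were held for 9 of the 10 genes, all but Socs2, and Cish was the only 1 of the 9 with a match. Of all 33469 rat windows, 2970 (8.87%) held at least 1 match and 2 (0.00598%) held at least 4. A match is a description of the letters, and its absence from Igf1 and Igfals concerns these windows alone.

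The deposited values are log2 signals with a detection call (present, marginal or absent) from the authors' array software. Present calls were made for 12714 probe sets on CCl4 replicate 3 and for 15550 to 16849 on the other arrays, and the median log2 signal of that array was 7.81 against 6.79 to 7.01. Among the 11231 probe sets present on all 9 arrays the medians lay between 9.51 and 9.58, with CCl4 replicate 3 at 9.53. Over all probe sets the median log2 difference was 0.18 between CCl4 and vehicle, and it was -0.01 among those present on all arrays, so this offset of the median lay mostly in weak signals. The bright end of CCl4 replicate 3 read lower: its 95th percentile was 11.42, against 11.62 to 11.69 on the other arrays. Ghr and Igf1 read above these percentiles on every array. Of the 10 genes, 8 were present on all arrays, Socs2 was present on 6 and Igfbp2 on 5. Each of the 3 comparisons shares its arrays with the other two, so they are not independent of each other.

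No member was called in any comparison by limma at a Benjamini-Hochberg adjusted p below 0.05 over all probe sets and at least 1.5-fold. Between CCl4 and vehicle, that rule called 0% of all probe sets. At an unadjusted p below 0.05, 3 of the 10 genes (Ghr, Igf1 and Igfals) were lower in CCl4 and 0 higher, where 3.72% of all probe sets were lower and 8.64% higher. Of the 11231 probe sets present on every array, 769 were lower and 806 higher at that threshold. When limma modelled the variance by signal level with robust estimation (the robust fit), Igfals alone was called, where this rule called 1.12% of all probe sets and 0.428% as lower. The methods' t-test at an unadjusted 0.05 and 1.5-fold took 2 of the 10, against 5.71% of all probe sets. The groups did not overlap, with CCl4 lower, for the same 3 genes, as for 7.14% of all probe sets and 14.2% of those present on every array, and for 0 genes with CCl4 higher, as for 11.1% of all probe sets and 11.2% of those present on every array. The median log2 difference of the 10 genes was -0.19.

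Between CCl4+Rot and CCl4, the limma rule called 0.00322% of all probe sets, which is 1 probe set. Igfals was the only member with an unadjusted p below 0.05, and it was higher in CCl4+Rot, as were 1.97% of all probe sets, with 4.65% lower. Of the 11231 present on every array, 296 were higher and 183 lower. The robust fit called 0 members and 0.00322% of all probe sets, and the methods' t-test took 0 members and 2.74% of all probe sets. The groups did not overlap for Igf1 and Igfals, with CCl4+Rot higher, as for 4.73% of all probe sets and 8% of those present on every array. The median log2 difference of the 10 genes was 0.31 here, against -0.12 over all probe sets and 0.02 among those present on every array. Between CCl4+Rot and vehicle, the rule called 0.0258% of all probe sets, and 0 members had an unadjusted p below 0.05 (5.63% of all probe sets were higher and 2.68% lower). The robust fit called 0 of the 10 and 0.776% of all probe sets, and the methods' t-test took 0 of the 10 and 6.85% of all probe sets. The groups did not overlap for Igfbp2, which was higher in CCl4+Rot (11.9% of all probe sets), and for Ghr and Igfbp4, which were lower (9.15%). Of the probe sets present on every array, as Ghr and Igfbp4 were, 14.2% were lower without overlap there. The median log2 difference of the 10 genes there was 0.08. An exact two-sided permutation test of 3 arrays against 3 cannot give a p below 0.1, and the labels say only that each array is a separate rat. Precision below is limited by how few arrays there are.

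**Figure D1:**
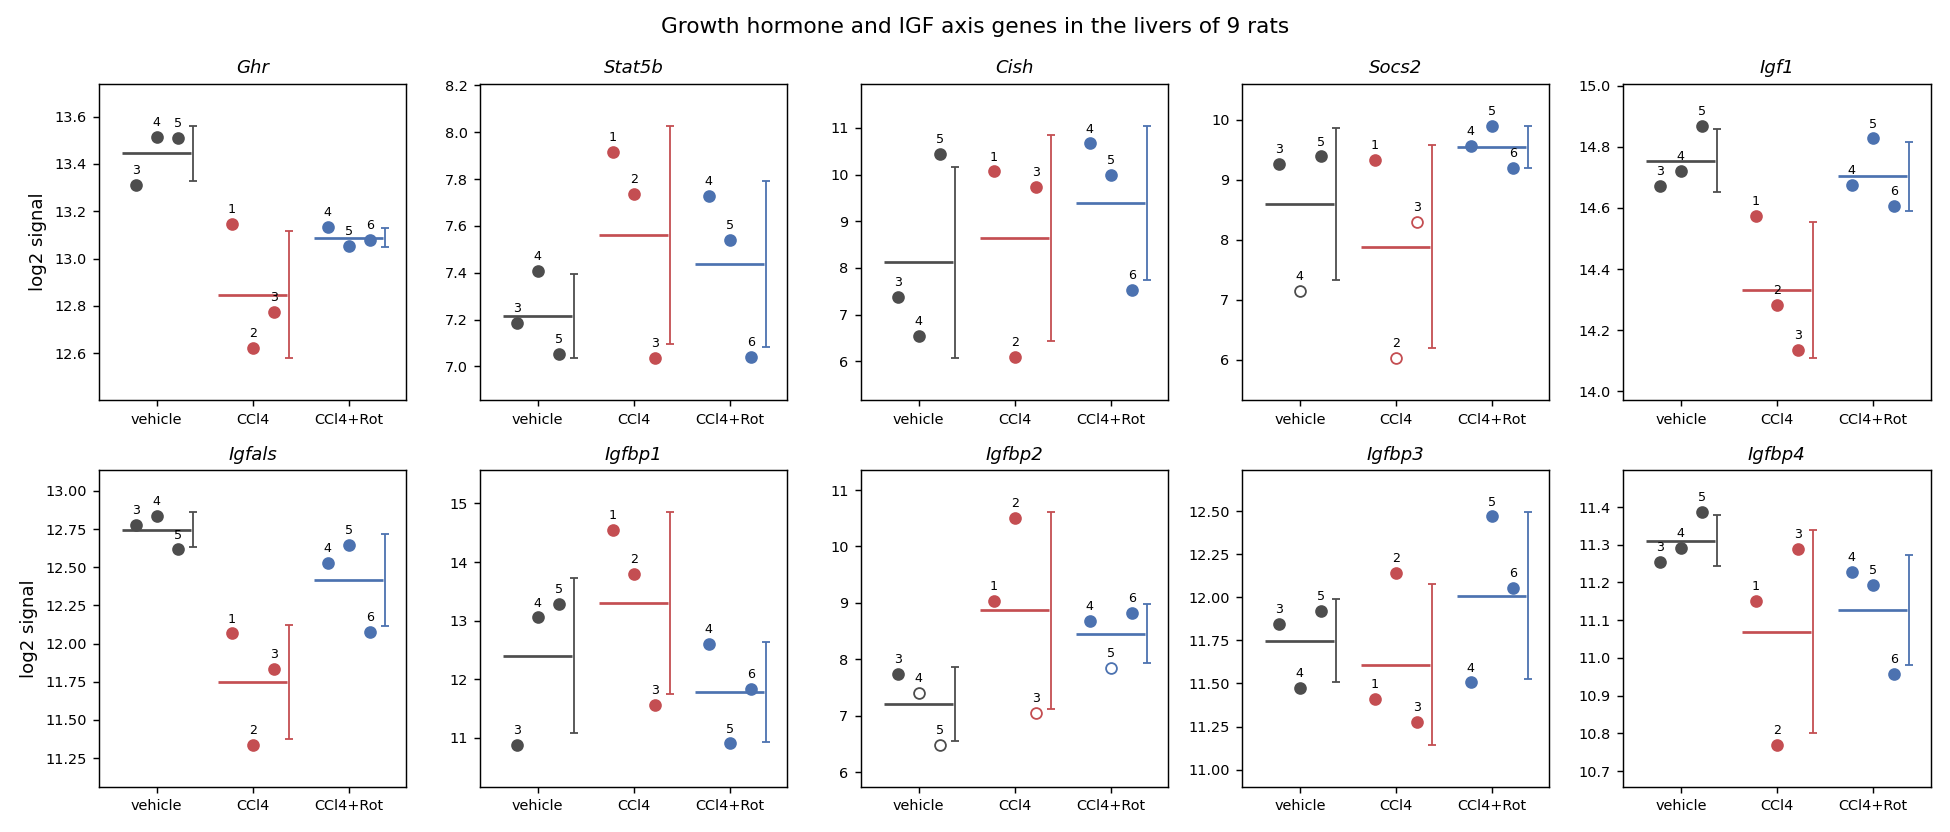
The log2 signal of each of the 10 genes (vertical axis, 1 panel per gene) in the 3 rats of each group (horizontal axis); the number beside a point is the rat's replicate number, filled points were called present and open points marginal or absent, the line is the group mean and the bar its SD. The CCl4 rats sit below both other groups for Igf1 and Igfals, and Cish and Socs2 spread widely within groups.

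The receptor gene Ghr, on chromosome 2, read 13.31, 13.52 and 13.51 in vehicle replicates 3, 4 and 5, 13.15, 12.62 and 12.77 in CCl4 replicates 1, 2 and 3, and 13.13, 13.05 and 13.08 in CCl4+Rot replicates 4, 5 and 6. Every CCl4 and every CCl4+Rot rat lay below every vehicle rat, and the CCl4+Rot rats, which were close to each other, lay within the range of the CCl4 rats. The mean was 13.45 ± 0.117 (SD, n = 3) with vehicle, 12.85 ± 0.269 with CCl4 and 13.09 ± 0.040 with CCl4+Rot. The log2 difference between CCl4 and vehicle was -0.60 (SE 0.18, 1.51-fold, limma adjusted p = 0.286), and the robust fit gave an adjusted p of 0.0623. CCl4+Rot differed from CCl4 by 0.24 (limma adjusted p = 0.785) and from vehicle by -0.36 (0.699). A second Ghr probe set showed the same order, with log2 differences of -0.49, 0.21 and -0.28 and the same separations between groups. In whole liver, fewer cells of a type and less RNA per cell cannot be told apart, and this holds for every gene here.

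Markers of other cells differed between the groups. All 8 stellate cell and myofibroblast markers had a mean log2 difference above 0 between CCl4 and vehicle (5 at an unadjusted p below 0.05, with 0 called by limma and 2 by the robust fit), and their summed linear signal was 7930 to 13200 in vehicle rats, 18000 to 33000 in CCl4 rats and 28100 to 35100 in CCl4+Rot rats. For 7 hepatocyte markers, 6 of them below 0 in that comparison, the sums were 156000 to 173000, 118000 to 175000 and 164000 to 177000. The lowest CCl4 sum was that of CCl4 replicate 3, the array with few present calls. Each of the 7 read lowest of the CCl4 rats there, with Alb at 14.04 against 15.10 and 15.06 in CCl4 replicates 1 and 2. No marker of either list was absent on all arrays. For 5 endothelial markers the sums were 8870 to 10000, 6730 to 9460 (lowest again in CCl4 replicate 3) and 9190 to 10100. For 4 Kupffer cell and macrophage markers they were 8200 to 11000, 7670 to 10900 and 11500 to 12900, and for 4 cholangiocyte markers, of which Krt7 was absent throughout, 836 to 1010, 994 to 1650 and 991 to 1060. The part of cell composition in the differences of the 10 genes was not tested.

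Stat5b, on chromosome 10, encodes the main transcription factor of the pathway in liver. Its signal was 7.19, 7.41 and 7.05 in the vehicle rats, 7.92, 7.74 and 7.04 in the CCl4 rats and 7.73, 7.54 and 7.04 in the CCl4+Rot rats. The highest and the lowest values of the series were both in the CCl4 group, and all groups overlapped. The log2 differences were 0.35 between CCl4 and vehicle, -0.13 between CCl4+Rot and CCl4 and 0.22 between CCl4+Rot and vehicle (limma adjusted p = 0.642, 0.922 and 0.942), and the first became -0.10 and the second 0.22 after quantile normalization.

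The ligand gene Igf1, on chromosome 7, encodes the growth factor that liver releases into blood. It read 14.67, 14.72 and 14.87 with vehicle, 14.57, 14.28 and 14.14 with CCl4 and 14.68, 14.83 and 14.61 with CCl4+Rot. Every CCl4 rat lay below every rat of both other groups, by as little as 0.0976 from the vehicle group and 0.0334 from the CCl4+Rot group, and vehicle and CCl4+Rot rats overlapped. Group means were 14.75 ± 0.103, 14.33 ± 0.223 and 14.70 ± 0.113 (SD, n = 3). Igf1 differed by -0.42 on the log2 scale between CCl4 and vehicle (SE 0.17, 1.34-fold, limma adjusted p = 0.388) and by 0.37 between CCl4+Rot and CCl4 (adjusted p = 0.752). Between CCl4+Rot and vehicle the difference was -0.05, with a 95% interval from -0.46 to 0.36. Without CCl4 replicate 3, the array with few present calls, the first 2 differences were -0.33 and 0.28, and quantile normalization took the same differences to -0.22 and 0.23.

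Igfals, on chromosome 10, encodes the acid-labile subunit and had the largest CCl4 difference of the 3 genes named above. Its signal was 12.78, 12.84 and 12.62 in the vehicle rats, 12.07, 11.34 and 11.83 in the CCl4 rats and 12.53, 12.65 and 12.07 in the CCl4+Rot rats. Every CCl4 rat lay below every vehicle rat. The CCl4 rats also lay below the CCl4+Rot rats, but CCl4 replicate 1 and CCl4+Rot replicate 6 were only 0.0083 apart. Means were 12.74 ± 0.115, 11.74 ± 0.373 and 12.42 ± 0.303 (SD, n = 3). Between CCl4 and vehicle the log2 difference was -1.0 (SE 0.25, 95% interval -1.57 to -0.43, 2.00-fold), with an adjusted p of 0.239 by limma and 0.0322 by its robust fit. That robust call was lost, at adjusted p values of 0.0528 to 0.156, without CCl4 replicate 2 or 3, without CCl4+Rot replicate 4, or without any single vehicle rat. Between CCl4+Rot and CCl4 the difference was 0.67 (95% interval 0.10 to 1.25, unadjusted p = 0.0271, limma adjusted p = 0.736), and between CCl4+Rot and vehicle it was -0.33 (adjusted p = 0.842). Without CCl4 replicate 3 the first 2 differences were -1.04 and 0.72.

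Igf1 and Igfals were thus the members with CCl4 below both vehicle and CCl4+Rot and no overlap. The same held for 580 of the 31042 probe sets (1.87%) and for 418 of the 11231 present on every array (3.72%). Since both comparisons use the same CCl4 arrays, low readings on those arrays enter both.

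**Figure D2:**
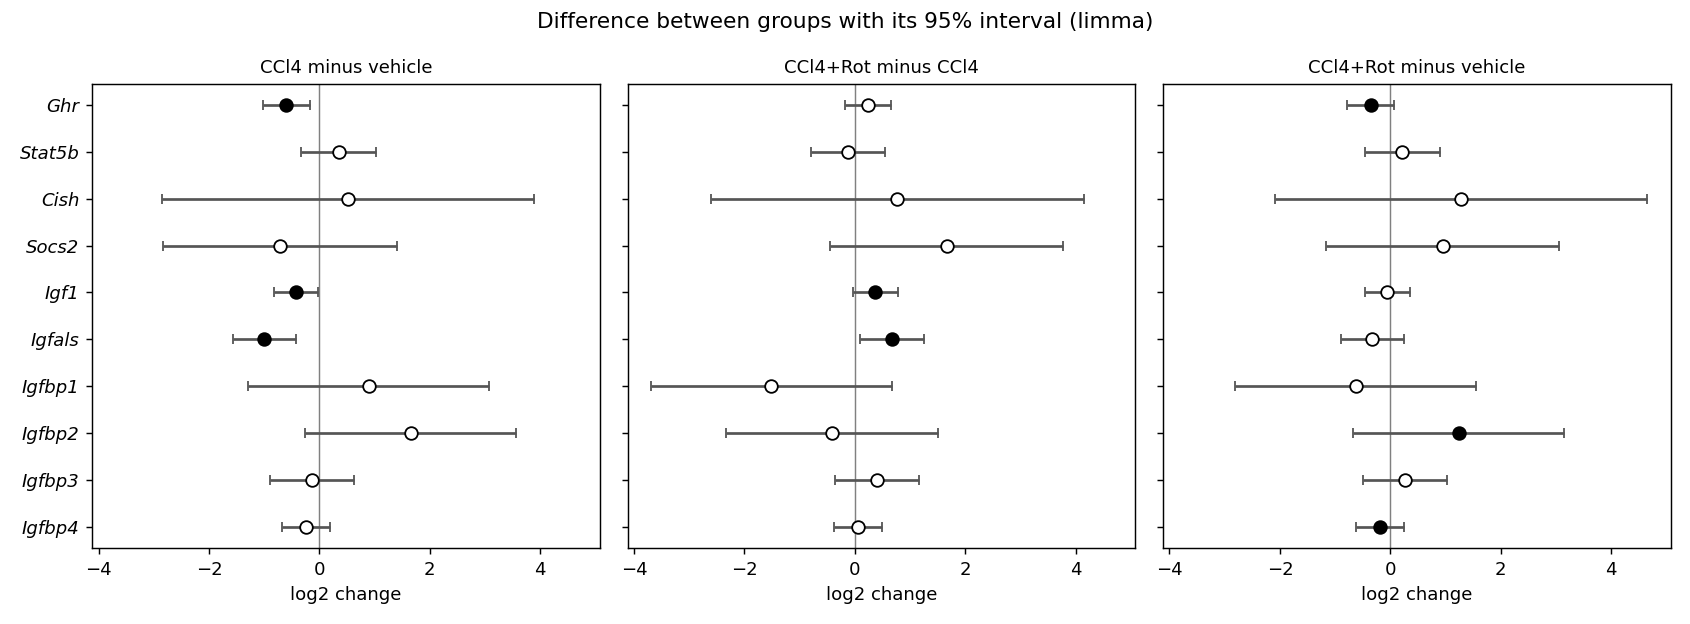
Mean log2 difference of each of the 10 genes with its 95% limma interval (horizontal axis) for the 3 comparisons; filled points mark genes whose groups do not overlap. The intervals of Ghr, Igf1 and Igfals between CCl4 and vehicle lie below 0, and those of Cish, Socs2, Igfbp1 and Igfbp2 are several times wider.

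The feedback inhibitors varied widely between rats of the same group. Cish, on chromosome 8, encodes a SOCS family protein that restrains STAT5 signaling. It read 7.38, 6.53 and 10.43 with vehicle, 10.07, 6.09 and 9.74 with CCl4 and 10.67, 10 and 7.53 with CCl4+Rot. Each group held at least 1 rat at about 10 and at least 1 far below, over a range of 4.58 on the log2 scale over the 9 rats. Its SD within groups was 1.99, against a median of 0.217 for the 11231 probe sets present on all arrays, and lay at percentile 99.98 among them. The second Cish probe set read 6.48, 5.78 and 9.60, then 9.40, 6.00 and 9.20, then 9.99, 8.43 and 6.18, with an SD of 1.95. The log2 differences of Cish were 0.52, 0.77 and 1.28 in the 3 comparisons, each with an SE of 1.45 (limma adjusted p = 0.897, 0.905 and 0.920).

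Socs2, on chromosome 7, encodes the SOCS protein that restrains growth hormone signaling and body growth. It read 9.26, 7.15 and 9.39 with vehicle, 9.33, 6.03 and 8.30 with CCl4 and 9.56, 9.90 and 9.19 with CCl4+Rot. Vehicle replicate 4 and CCl4 replicates 2 and 3 were called absent, whereas all CCl4+Rot rats were called present. The groups overlapped, and the log2 differences were -0.71, 1.66 and 0.95 (limma adjusted p = 0.765, 0.765 and 0.891).

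The rat with the lowest Cish of its group (vehicle replicate 4, CCl4 replicate 2 and CCl4+Rot replicate 6) also had the lowest Socs2 of its group, in all 3 groups. In the list of growth hormone responsive genes, Onecut1 was also lowest in these rats. Onecut1 encodes HNF6, a liver transcription factor induced by growth hormone, and it read 11.16, 9.42 and 11.31 with vehicle, 9.75, 8.13 and 9.47 with CCl4 and 11.63, 12.46 and 10.75 with CCl4+Rot. Bcl6, which encodes a repressor that growth hormone lowers, was highest in these rats. It was named after its values were seen, and read 11.21, 12.29 and 10.28 with vehicle, 10.21, 11.84 and 9.39 with CCl4 and 10.03, 9.32 and 10.16 with CCl4+Rot. Of the 10 members, 2 were lowest in these rats of all 3 groups (Cish by definition, and Socs2) and 0 were highest. Igf1 and Igfals, which STAT5 also induces, were thus neither. Igfals was lowest of its group in CCl4 replicate 2 and CCl4+Rot replicate 6, but highest in vehicle replicate 4. Of the 15 growth hormone responsive genes measured, 1 was lowest and 1 highest in these rats of all 3 groups. Of 36 other genes of the pathway, 2 were lowest (Ghrhr and Igfbp6) and 2 highest (Jak2 and Akt1). Of the 17 insulin and fasting responsive genes 0 were either. Among the 11231 probe sets present on all arrays, 3.23% were lowest in these rats and 3.52% highest. Between the other rats of a group, lower Cish went with lower Onecut1 and higher Bcl6 in the vehicle group. In the CCl4 group this order was kept for Onecut1 but not for Bcl6, and in the CCl4+Rot group it was kept for neither. This is a description of the extreme rat of each group, and no test was made of it.

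**Figure D3:**
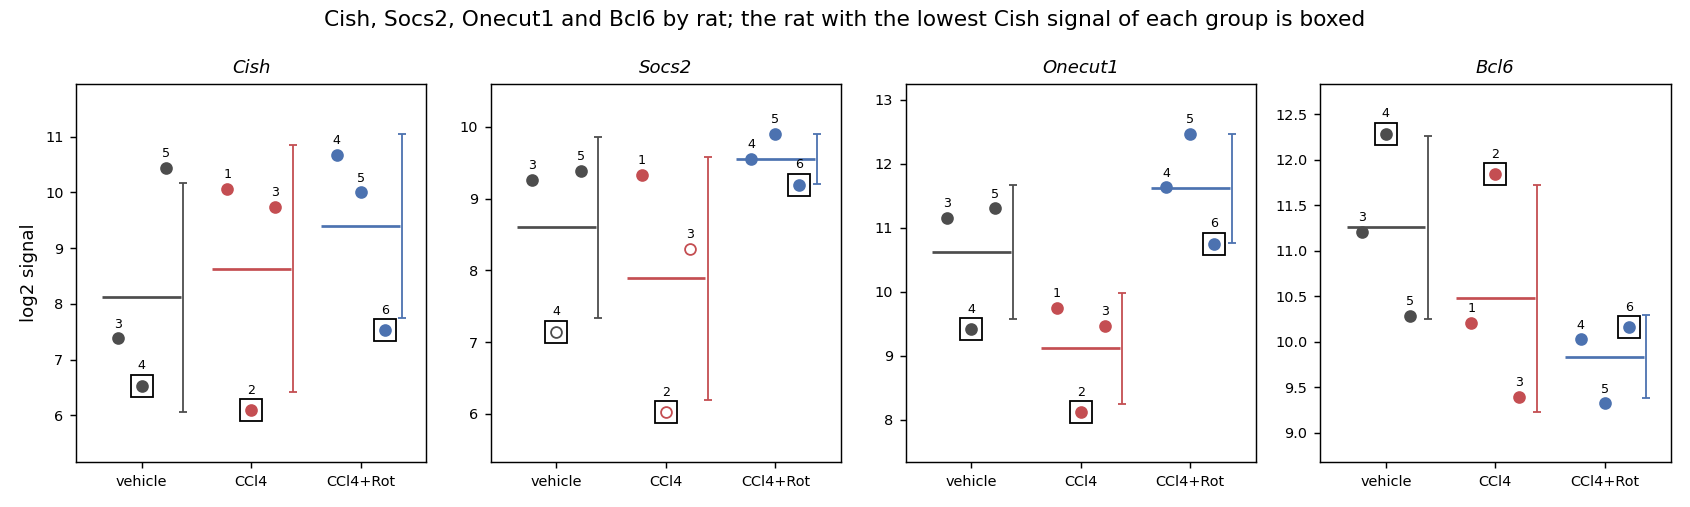
The log2 signal of Cish, Socs2, Onecut1 and Bcl6 (vertical axis) in each rat by group (horizontal axis), with the rat of lowest Cish in each group boxed and numbers giving replicates. The boxed rats are also the lowest of their group for Socs2 and Onecut1 and the highest for Bcl6.

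Among the binding proteins, Igfbp3, on chromosome 14, encodes the main carrier of the ternary complex and in liver is made largely outside hepatocytes. It read 11.85, 11.47 and 11.92 with vehicle, 11.41, 12.14 and 11.27 with CCl4 and 11.51, 12.47 and 12.06 with CCl4+Rot. The groups overlapped, and the log2 differences were -0.14, 0.40 and 0.26 (limma adjusted p = 0.879, 0.797 and 0.934). The second Igfbp3 probe set gave -0.35, 0.71 and 0.36.

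Igfbp1 lies beside Igfbp3 on chromosome 14 and encodes the binding protein that responds acutely to insulin. It read 10.88, 13.06 and 13.28 with vehicle, 14.54, 13.79 and 11.56 with CCl4 and 12.61, 10.91 and 11.83 with CCl4+Rot. Each group spanned at least 1.70 log2 units, and no pair of groups was separate. The differences of 0.89, -1.52 and -0.62 had an SE of 0.94 each (limma adjusted p = 0.711, 0.765 and 0.955). CCl4 replicate 1 had the highest Igfbp1 signal of all 9 rats, and it was also the highest for 7 of the 17 insulin and fasting responsive genes. In that rat, Trib3, a stress-induced pseudokinase, read 12.06 against at most 7.59 elsewhere. Fgf21, a fasting and stress hormone of liver, read 10.64 against at most 8.93, and Pdk4, a kinase that spares glucose, read 13.21 against at most 11.54. These 3 genes were named after their values were seen. When single arrays were left out, the log2 difference of Igfbp1 between CCl4 and vehicle ranged from 0.13 without vehicle replicate 3 to 1.76 without CCl4 replicate 3, and was 0.27 without CCl4 replicate 1.

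Igfbp2 encodes a binding protein that is high in fetal liver and low in the adult. It was called present in vehicle replicate 3, CCl4 replicates 1 and 2 and CCl4+Rot replicates 4 and 6. Its signal was 7.74, 7.41 and 6.48 with vehicle, 9.04, 10.51 and 7.05 with CCl4 and 8.68, 7.85 and 8.83 with CCl4+Rot. Every CCl4+Rot rat lay above every vehicle rat, by at least 0.114, while CCl4 replicate 3 lay within the vehicle range and the other two CCl4 rats were the highest of all. The log2 differences were 1.66 (SE 0.82, limma adjusted p = 0.455) between CCl4 and vehicle, -0.41 (0.910) between CCl4+Rot and CCl4 and 1.24 (0.805) between CCl4+Rot and vehicle. Without CCl4 replicate 3 the first was 2.57, and the robust fit then called it at an adjusted p of 0.0484, while without CCl4 replicate 2 it was 0.84.

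Igfbp4, on chromosome 10, encodes an inhibitory IGF binding protein made by hepatocytes. It read 11.25, 11.29 and 11.39 with vehicle, 11.15, 10.77 and 11.29 with CCl4 and 11.23, 11.19 and 10.96 with CCl4+Rot. The CCl4+Rot rats lay below the vehicle rats by as little as 0.0266, and the other pairs of groups overlapped. The log2 differences were -0.24, 0.06 and -0.18 (limma adjusted p = 0.617, 0.948 and 0.901).

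A list of 38 other genes of the pathway held further receptors, kinases, adaptors, binding proteins and inhibitors, and 36 were measured. Of these, 8 were present on no array: Gh1, Igf2, Igf1r, Igf2bp1, Igf2bp2, Socs1, Foxo1 and Stc2. The limma rule called 0 of the 36 in each comparison. At an unadjusted p below 0.05, 3 were higher and 3 lower between CCl4 and vehicle (16.7% of the 36, against 12.4% of all probe sets), 1 was higher and 2 lower between CCl4+Rot and CCl4 (8.33% against 6.63%), and 3 were higher and 1 lower between CCl4+Rot and vehicle (11.1% against 8.31%). Gh1, at signals called absent throughout, was among the lower ones in the second. The median log2 differences of the list were 0.05, 0.03 and 0.06.

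Igfbp5, which encodes an IGF binding protein of mesenchymal cells, had all 3 groups separate. It read 7.01, 6.60 and 6.80 with vehicle, 7.30, 7.96 and 7.77 with CCl4 and 8.14, 8.18 and 8.12 with CCl4+Rot, so that every CCl4+Rot rat lay above every CCl4 rat and every CCl4 rat above every vehicle rat. The log2 differences were 0.87 between CCl4 and vehicle (SE 0.21, limma adjusted p = 0.237), 0.48 between CCl4+Rot and CCl4 (0.751) and 1.35 between CCl4+Rot and vehicle (0.167), and the robust fit called the last at an adjusted p of 0.0303. The other 4 Igfbp5 probe sets were present on no array. The summed stellate cell and myofibroblast markers given above were also higher in both CCl4 groups than with vehicle, and their part in this result was not tested.

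Stat3, the transcription factor of IL-6 signaling, read 8.27, 8.23 and 8.46 with vehicle, 9.35, 9.25 and 9.85 with CCl4 and 8.53, 8.82 and 9.12 with CCl4+Rot. All 3 groups were separate, with CCl4 highest, at log2 differences of 1.17 (limma adjusted p = 0.202, robust fit 0.0216) between CCl4 and vehicle and -0.66 (0.724) between CCl4+Rot and CCl4. The second Stat3 probe set gave 0.70 and -0.73, with vehicle and CCl4+Rot overlapping.

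Insr, which encodes the insulin receptor, read 7.58, 7.35 and 7.29 with vehicle, 7.10, 6.42 and 6.15 with CCl4 and 7.13, 6.85 and 7.18 with CCl4+Rot. Every rat of both CCl4 groups lay below every vehicle rat, and the log2 difference between CCl4 and vehicle was -0.85 (limma adjusted p = 0.290). Grb10, which encodes an adaptor that restrains insulin and IGF-1 receptor signaling, was present on 0 of 3 vehicle arrays, 1 of 3 CCl4 arrays and 3 of 3 CCl4+Rot arrays. Its mean log2 difference between CCl4+Rot and vehicle was 1.00 (SE 0.22, 2.01-fold, limma adjusted p = 0.232). Taking no vehicle signal as lower than the weakest present probe set of that array left the vehicle mean at 6.64. The fold is therefore an estimate that uses vehicle signals not called present, and it is not a minimum. The CCl4 rats read 7.36, 7.53 and 7.15 and the vehicle rats 6.35, 6.66 and 6.90, but no fold is given between them, since only 1 of these 6 arrays was called present. The other 2 Grb10 probe sets, present on at most 3 arrays, gave differences of 0.23 and 0.24 between CCl4+Rot and vehicle, with overlap.

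Genes known to respond to growth hormone in rat liver formed a second list of 20, of which 15 were measured. The 5 that were not, Cyp2c11, Cyp4a2, Mup4, Cyp2c12 and Cyp2c7, had no probe set that names them alone. Between CCl4 and vehicle, 12 of the 15 had a difference below 0, with a median of -0.41, where 36.8% of all probe sets and 51.3% of those present on every array were below 0. Between CCl4+Rot and CCl4, 10 of the 15 were above 0, with a median of 0.19, against 39% of all probe sets and 53.8% of those present on every array. For CCl4+Rot against vehicle, 11 were below 0, with a median of -0.12, beside 48.9% and 50.9%. The limma rule and the robust fit called 0 of the 15 in each comparison. At an unadjusted p below 0.05 there were 2 lower, 3 higher and 2 lower, in the same order, where 3.72% of all probe sets were lower, 1.97% higher and 2.68% lower. Of the 11231 probe sets present on every array, 769 were lower, 296 higher and 356 lower. The male-predominant cytochrome P450 genes Cyp2c13, Cyp2a2, Cyp3a2 and Cyp3a18, named after their values were seen, differed by -0.21, -0.35, -0.22 and 0.10 between CCl4 and vehicle. Each of these bright genes read lowest of the CCl4 rats on CCl4 replicate 3, the array whose bright end read lower.

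Obp3, listed as an alpha-2u globulin, belongs to the male rat urinary protein family that depends on growth hormone and androgen. It read 14.58, 14.80 and 14.79 with vehicle, 11.82, 6.30 and 11.55 with CCl4 and 9.80, 10.20 and 8.36 with CCl4+Rot. Every rat of both CCl4 groups was far below every vehicle rat, and CCl4 replicate 2 was called absent. The log2 difference was -4.84 between CCl4 and vehicle (SE 1.38, limma adjusted p = 0.263), -0.44 between CCl4+Rot and CCl4 (0.946) and -5.27 between CCl4+Rot and vehicle (0.321). Without CCl4 replicate 2, the difference between CCl4 and vehicle was -3.04, and every CCl4+Rot rat lay below the remaining CCl4 rats, at -2.23 (SE 0.52, limma adjusted p = 0.447). Limma then also called the difference between CCl4+Rot and vehicle (adjusted p = 0.0321). Without CCl4 replicate 1 or 3, CCl4+Rot differed from CCl4 by 0.53 or 0.39, so the sign of that difference rested on single CCl4 rats. A second Obp3 probe set gave -5.36, -0.68 and -6.04. The family has near-identical copies, so the probe sets may read several of them.

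Cebpa, which encodes a hepatocyte transcription factor, read 12.37, 12.08 and 12.28 with vehicle, 11.45, 11.26 and 11.92 with CCl4 and 12.62, 12.47 and 12.49 with CCl4+Rot. CCl4 was below both other groups and CCl4+Rot above vehicle, with no overlap. The log2 differences were -0.70 between CCl4 and vehicle (limma adjusted p = 0.280, robust fit 0.0601), 0.98 between CCl4+Rot and CCl4 (SE 0.21, limma adjusted p = 0.608, robust fit 0.098) and 0.28 between CCl4+Rot and vehicle (0.835). The other 4 Cebpa probe sets lay between -0.69 and -0.58 in the first comparison, between 0.39 and 1.07 in the second and between -0.30 and 0.39 in the third. Not all of them kept CCl4+Rot and vehicle separate, and the probe set at -0.30 also overlapped between CCl4+Rot and CCl4. Onecut1, whose values are given above, differed by -1.51 (limma adjusted p = 0.427) between CCl4 and vehicle and by 2.5 (SE 0.69, 0.650) between CCl4+Rot and CCl4, where the groups did not overlap. Its second probe set gave -1.30 and 2.21. Hnf4a, a master regulator of hepatocyte genes, differed by -0.41 (limma adjusted p = 0.448) between CCl4 and vehicle and by 0.28 (0.780) between CCl4+Rot and CCl4. Its other 2 probe sets gave -0.31 and -0.57 in the first and, with the opposite sign, -0.36 and -0.07 in the second.

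**Figure D4:**
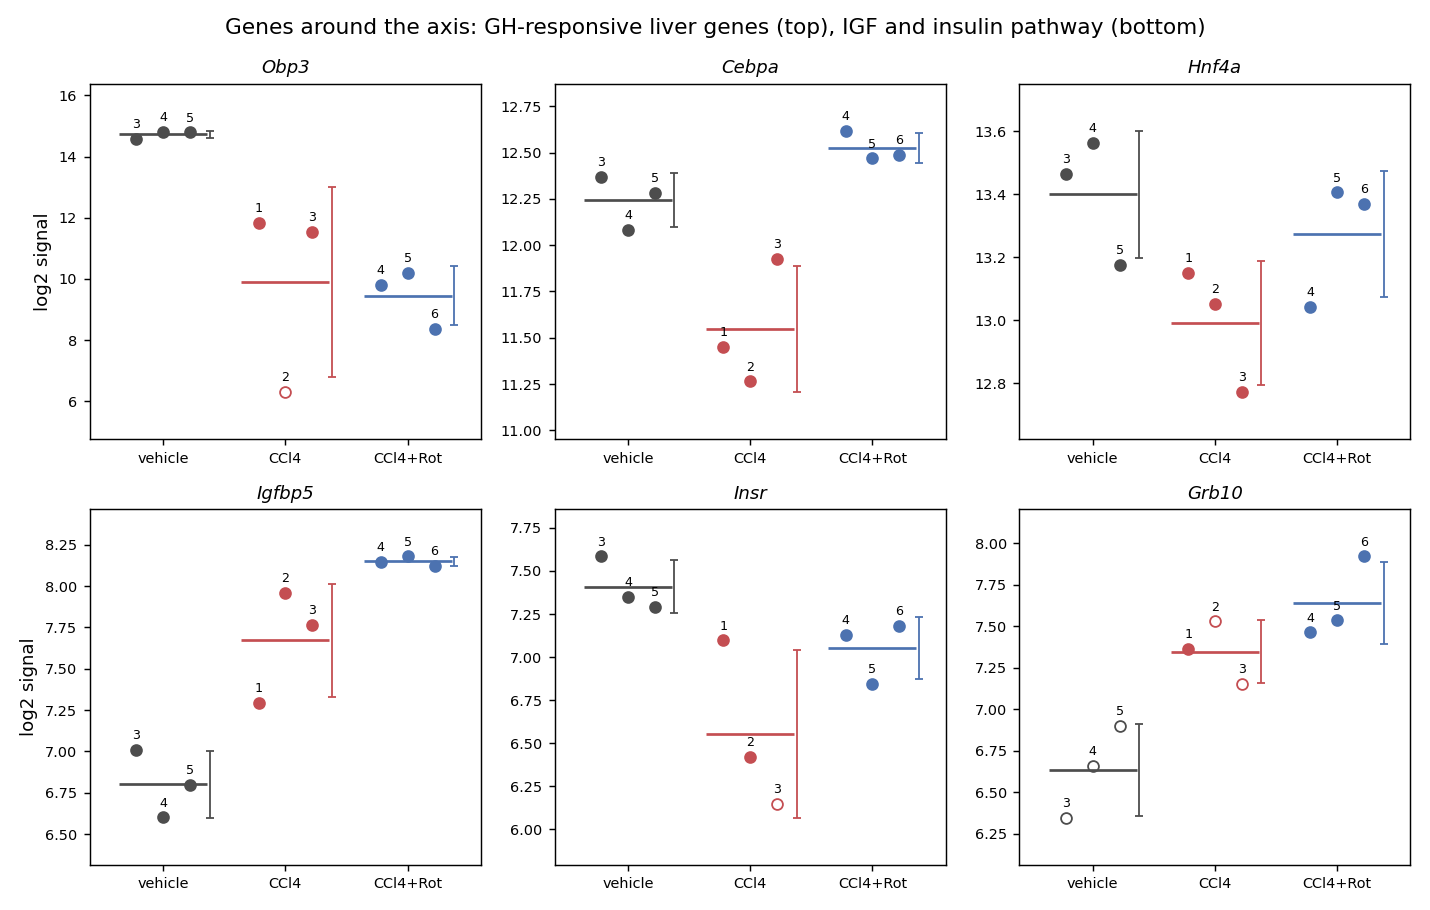
The log2 signal of Obp3, Cebpa, Hnf4a, Igfbp5, Insr and Grb10 (vertical axis) in each rat by group (horizontal axis); numbers are replicates, filled points were called present, lines are means and bars SDs. Obp3 is low in all 6 rats given CCl4, Cebpa is low in the CCl4 group alone, and Igfbp5 is higher in each group than in the one before it.

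The third list held insulin and fasting responsive liver genes, of which 17 of 19 were measured. The limma rule called 0 of them in each comparison. At an unadjusted p below 0.05, 1 was higher and 3 were lower between CCl4 and vehicle, where 8.64% of all probe sets were higher and 3.72% lower. Of the 11231 probe sets present on every array, 806 were higher and 769 lower. In the other comparisons 0 of the 17 passed, against 6.63% of all probe sets between CCl4+Rot and CCl4 and 8.31% between CCl4+Rot and vehicle. Cpt1a, the gate of mitochondrial fatty acid oxidation, read 13.70, 13.81 and 13.73 with vehicle, 12.79, 13.13 and 12.12 with CCl4 and 13.52, 12.90 and 13.03 with CCl4+Rot. Every CCl4 rat lay below every vehicle rat, with a log2 difference of -1.06 (limma adjusted p = 0.252), which the robust fit called at an adjusted p of 0.0426. The second Cpt1a probe set gave -1.29. Sds, a serine-degrading enzyme of gluconeogenesis, differed by -1.99 (limma adjusted p = 0.322) between CCl4 and vehicle. Insig1, a brake on sterol synthesis, differed by 0.93 (limma adjusted p = 0.365). Between CCl4+Rot and CCl4, Trib1, a pseudokinase, differed by -0.75 (limma adjusted p = 0.752).

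The genes whose signal over the 9 arrays was most like that of Igf1, among 7057 genes present on all of them, were Csgalnact2 (r = 0.987), Cd81 (r = 0.962), Ccnh (r = 0.959), Hao1 (r = 0.943) and Tmem59 (r = 0.942). Csgalnact2 encodes a chondroitin sulfate transferase, Cd81 a tetraspanin, Ccnh cyclin H and Hao1 the glycolate oxidase of hepatocytes. Igfals (r = 0.827) ranked 185 and Ghr (r = 0.812) ranked 239. Igfbp4 (r = 0.433), Igfbp3 (r = 0.355), Cish (r = 0.245), Stat5b (r = -0.01) and Igfbp1 (r = -0.09) ranked lower. All of these values share the 9 arrays and the 3 groups, so r describes the likeness of 2 patterns and is not tested. Csgalnact2 read 8.10, 8.16 and 8.30 with vehicle, 8.03, 7.59 and 7.37 with CCl4 and 8.10, 8.18 and 8.0 with CCl4+Rot, which includes a low value on CCl4 replicate 3 as Igf1 does.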

How the data were processed

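The authors deposited log2 signals with a detection call for 31099 probe sets. The submitters' processing notes name MAS5 and affy, and no genome build is given in the sources used here. Chromosomes are those the table lists (for Igfbp2 it differs from that of the RefSeq gene, so none is printed). No further normalization was applied to the deposited log2 values, and 57 control probe sets were left out. A model of 3 group means over all 9 arrays was fitted with limma 3.58.1 in R 4.3.3, p was adjusted by Benjamini-Hochberg over 31042 probe sets, and a call needed an adjusted p below 0.05 and 1.5-fold, the fold of the study's methods. A gene's value is that of the probe set with the highest mean signal among those naming it alone.

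The members and lists were chosen with earlier results of these data known. All members are named. From each other list the text names called genes, the 4 of smallest p between CCl4 and vehicle and the 2 of smallest p between CCl4+Rot and CCl4 among genes present on at least 3 arrays, and the 5 genes most like Igf1 over the arrays. Some genes selected in this way are not reported here. Others are named as chosen afterwards, or as members of a count. The fits were tested on simulated data. The alternatives were quantile normalization, median centring, leaving out the lowest 30% of probe sets, presence on at least 3 arrays, the robust fit, the methods' t-test, averaging a gene's probe sets, a replicate block and each array left out. Promoter sequences are from RefSeq (GRCr8).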

Additional observations from a re-analysis of the deposited data

How the results depend on the processing

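Apart from the robust fit and the unadjusted t-test, 0 of the 10 members were called under the alternatives run, and with each array left out the count stayed at 0 to 0 in each comparison. The methods' t-test at an unadjusted 0.05 and 1.5-fold took 2 members between CCl4 and vehicle. For the wider pathway it took 4, 2 and 3 genes in the comparisons CCl4 to vehicle, CCl4+Rot to CCl4 and CCl4+Rot to vehicle. For the growth hormone responsive list it took 1, 2 and 2, and for the insulin and fasting list 3, 0 and 1. The robust fit called 1 member (Igfals), 1 wider gene (Stat3) and 1 insulin and fasting gene (Cpt1a) between CCl4 and vehicle, and 1 wider gene (Igfbp5) between CCl4+Rot and vehicle. Igfbp5 was also the 1 wider gene called there among probe sets present on at least 3 arrays. The robust fit with each array left out, an alternative chosen after seeing the data, called 0 to 2 members between CCl4 and vehicle: Ghr and Igfals without CCl4 replicate 1, and Igfbp2 instead without CCl4 replicate 3. Without CCl4 replicate 2, limma called 1 growth hormone responsive gene, Obp3, between CCl4+Rot and vehicle (range 0 to 1).

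Stat5b turned to -0.012 between CCl4 and vehicle and 0.12 between CCl4+Rot and CCl4 after median centring, and to -0.10 and 0.22 after quantile normalization. Igf1 turned to 0.015 between CCl4+Rot and vehicle after quantile normalization. The cause was not tested. With an array left out, the range crossed 0 between CCl4 and vehicle for Igfbp3 (-0.40 to 0.030), Socs2 (-1.44 to 0.22) and Cish (-0.27 to 1.79). It did so between CCl4+Rot and CCl4 for Igfbp2 (-1.32 to 0.41), Igfbp4 (-0.093 to 0.17), Cish (-0.51 to 1.70) and Stat5b (-0.39 to 0.071), and between CCl4+Rot and vehicle for Igf1 (-0.11 to 0.0072). Of the 30 member differences, 21 kept their sign in all alternatives. Animal numbers shared between groups gave correlations of -0.0896, -0.00466 and -0.0125, so they did not pair the rats, and with the number as a replicate block 0 members were called in each comparison.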
